A study of Arabidopsis thaliana with 9 samples.

Results

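Plastid-encoded protein-coding genes are the protein genes that chloroplasts keep in a genome of their own. They were taken here as all rows of the deposited gene table that lie on the plastid sequence and are annotated as protein-coding, which gave 87 of 38299 rows, out of 131 rows on that sequence. The 87 rows carry 78 distinct names. Of these names, 7 stand on more than 1 row, 16 rows in all, most of them copies in the inverted repeat of the plastid genome. Of the 16 rows, 14 share both name and length with another row, which leaves out ycf1. RNA was sequenced from Arabidopsis thaliana sepals of the mutant gir1-1, the mutant atml1-3 and wild-type Col-0 (WT), with 3 libraries of each genotype. Every library came from 200 sepals dissected from 50 unopened buds at floral stage 12, on plants kept at 23 °C in continuous light, and all 9 libraries carry one batch label. GIR1 encodes a small adaptor protein that recruits a co-repressor, and ATML1 encodes an HD-ZIP IV transcription factor of the epidermis. The labels give the alleles by name only, and they do not say whether the libraries of a genotype came from separate sets of plants, so p-values measure the spread between these samples. How mRNA was selected for the libraries is not given in the sources used here.

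Plastid genes encode the reaction-centre and core proteins of the photosystems (psa, psb), the cytochrome b6f complex (pet), the ATP synthase (atp), the NDH complex of cyclic electron flow (ndh) and the large subunit of Rubisco (rbcL). They also encode part of the plastid ribosome (rpl, rps) and the core of the bacterial-type plastid RNA polymerase (rpo), while the remaining subunits of all these complexes are made from nuclear genes. In green tissue the photosynthesis genes are read mainly by the bacterial-type polymerase with nuclear sigma factors, from promoters with a pair of short boxes of the bacterial kind. Housekeeping genes are read partly or wholly by a phage-type polymerase, and most plastid transcripts are stabilised and processed by nuclear RNA-binding proteins and carry no lasting poly(A) tail.

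The promoter elements of psbA and rbcL, the members with the most counts, are shown because these genes carry 41.85% of all plastid coding counts. A pair written TTGNNN, then 18 bases, then TANANT was searched for on the coding strand in the 250 bases before each gene start. Its spacing was chosen with the psbA and rbcL promoters known. It also leaves open the bases at which the boxes of these genes differ, so their own matches were fixed in advance. The pair stood in 5 of 87 windows (5.75%), in 5.1% of the windows of nuclear protein-coding genes and in 3.16% of windows cut from both strands of the whole plastid sequence. The 5 stretches are printed with the TTG and TA boxes in capitals, and the one found for psbC lies inside the coding sequence of psbD.
psbA (Pt:1522-1567, minus strand): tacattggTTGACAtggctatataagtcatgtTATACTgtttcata
rbcL (Pt:54737-54782, plus strand): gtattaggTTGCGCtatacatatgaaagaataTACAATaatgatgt
psbB (Pt:72156-72201, plus strand): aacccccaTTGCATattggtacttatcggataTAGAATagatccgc
psbE (Pt:64446-64491, minus strand): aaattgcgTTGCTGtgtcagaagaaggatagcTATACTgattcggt
psbC (Pt:33481-33526, plus strand): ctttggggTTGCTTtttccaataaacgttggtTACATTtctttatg
Pt stands for the plastid sequence of the TAIR10.1 RefSeq assembly, 154478 bases long. Of these windows, 4 belong to psb genes and 1 to rbcL. With so few matches, at a rate near that of nuclear windows, no difference between classes is read from them. A match is a description of letters and does not show a working promoter. The full bacterial box TTGACA with TANNNT after 15 to 19 bases was found for psbA and for both rows of ycf1 (3.45% of windows, against 1.32% of nuclear windows). The windows of both ycf1 rows are copies of 1 stretch in the inverted repeat, so this share counts that stretch more than once.

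Plastid coding RNA made up a smaller share of the library in both mutants than in WT. The 3 gir1-1 libraries held 4903, 4617 and 6011 plastid coding counts, the atml1-3 libraries 4106, 4944 and 3062, and the WT libraries 8771, 7758 and 6446. This was 0.0283% ± 0.00133 of all counts in gir1-1 and 0.0235% ± 0.00424 in atml1-3, against 0.0436% ± 0.00459 in WT (SD, n = 3 each). Every library of either mutant lay below every WT library, and every atml1-3 library lay below every gir1-1 library. Each of these 3 comparisons gave p = 0.1 by the exact two-sided permutation test, which is the smallest p that 3 against 3 libraries allow. Fitted as 1 row among all genes, the summed counts had a log2 fold change of −0.66 (SE 0.17) in gir1-1 and −0.99 (SE 0.18) in atml1-3 against WT. The adjusted p was 0.438 and 0.377 (edgeR quasi-likelihood test, Benjamini-Hochberg over all genes tested). The unadjusted edgeR p-values of the summed row were 0.00358 and 0.000216. In a bulk sample, fewer plastid-rich cells and less plastid RNA per cell cannot be told apart.

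The 9 libraries held between 15328056 and 20148807 counts, so 3 counts, the smallest amount taken as detectable, were at most 0.196 CPM. GIR1 had 12, 10 and 7 counts in gir1-1 and 14, 10 and 17 in atml1-3, against 26, 36 and 73 in WT. ATML1 had 424, 392 and 325 counts in gir1-1 and 124, 345 and 266 in atml1-3, against 522, 537 and 872 in WT. AP1, a sepal identity gene, averaged 218 CPM in gir1-1 and 201 CPM in atml1-3 against 240 CPM in WT. Summed counts of 13 marker genes of other floral organs were 0.0076% to 0.021% of a library in gir1-1, 0.0105% to 0.0167% in atml1-3 and 0.0064% to 0.0189% in WT. Of these markers, the tapetum genes A9 and MS1 had no counts in any library, 8 passed the filter, and the carpel and nectary gene CRC averaged 0.0327 CPM in gir1-1 and 1.5 CPM in atml1-3 against 1.42 CPM in WT. The nectary gene SWEET9 averaged 0 CPM in gir1-1 and 0.743 CPM in atml1-3 against 1.38 CPM in WT. Of the 8 that passed, 4 were lower and 4 higher in gir1-1, and 2 lower and 6 higher in atml1-3 (49.3% and 51.1% of all genes tested were lower). SHP1 averaged 4.975 CPM in gir1-1 and 6.99 CPM in atml1-3 against 3.69 CPM in WT. All libraries of both mutants lay above WT for it (5.17% and 9.85% of all genes did). VGD1 and AP3 had the most counts of the 13, with means of 1275 and 779, so the sum follows mainly these. CRC, SWEET9 and SHP1 are given here because of their values, and the part of these markers in the plastid results was not tested.

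Other organelle RNA was also lower in the mutants. Plastid rRNA rows held 0.0085% of counts in gir1-1 and 0.0066% in atml1-3 against 0.0221% in WT, where replicate 1 stood apart with 7033 counts beside 2409 and 2364 in the other WT libraries. All mitochondrial rows together held 0.0243% in gir1-1 and 0.0221% in atml1-3 against 0.0384% in WT, which is 0.633 and 0.575 of the WT share. Mitochondrial protein-coding genes alone held 0.00233% in gir1-1 and 0.00232% in atml1-3 against 0.00286% in WT. Groups of both mutants lay below WT in each of these measures, with p = 0.1 by the exact permutation test. For mitochondrial protein-coding genes, WT replicate 2 held 0.00351%, beside 0.00256% and 0.00252% in the other WT libraries. The highest library held 0.00244% in gir1-1 and 0.00247% in atml1-3. With 1 library left out, this difference from WT was as small as −0.00020 percentage points in gir1-1 and −0.00022 in atml1-3. Plastid coding counts per mitochondrial coding count were 10.8, 10.7 and 8.7 in atml1-3 against 18.7, 12.5 and 15.4 in WT, without overlap. In gir1-1 the same ratio was 11.3, 11.6 and 13.6, which overlapped WT. This ratio uses mitochondrial coding rows only, with 352 to 620 counts per library. The plastid coding share was 0.65 of WT in gir1-1 and 0.538 in atml1-3, near the 0.633 and 0.575 of all mitochondrial rows. Whether the plastid difference goes beyond that of all mitochondrial rows was not tested. Whether a step of library preparation that acts on all organelle RNA moved these values was not tested.

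**Figure D1:**
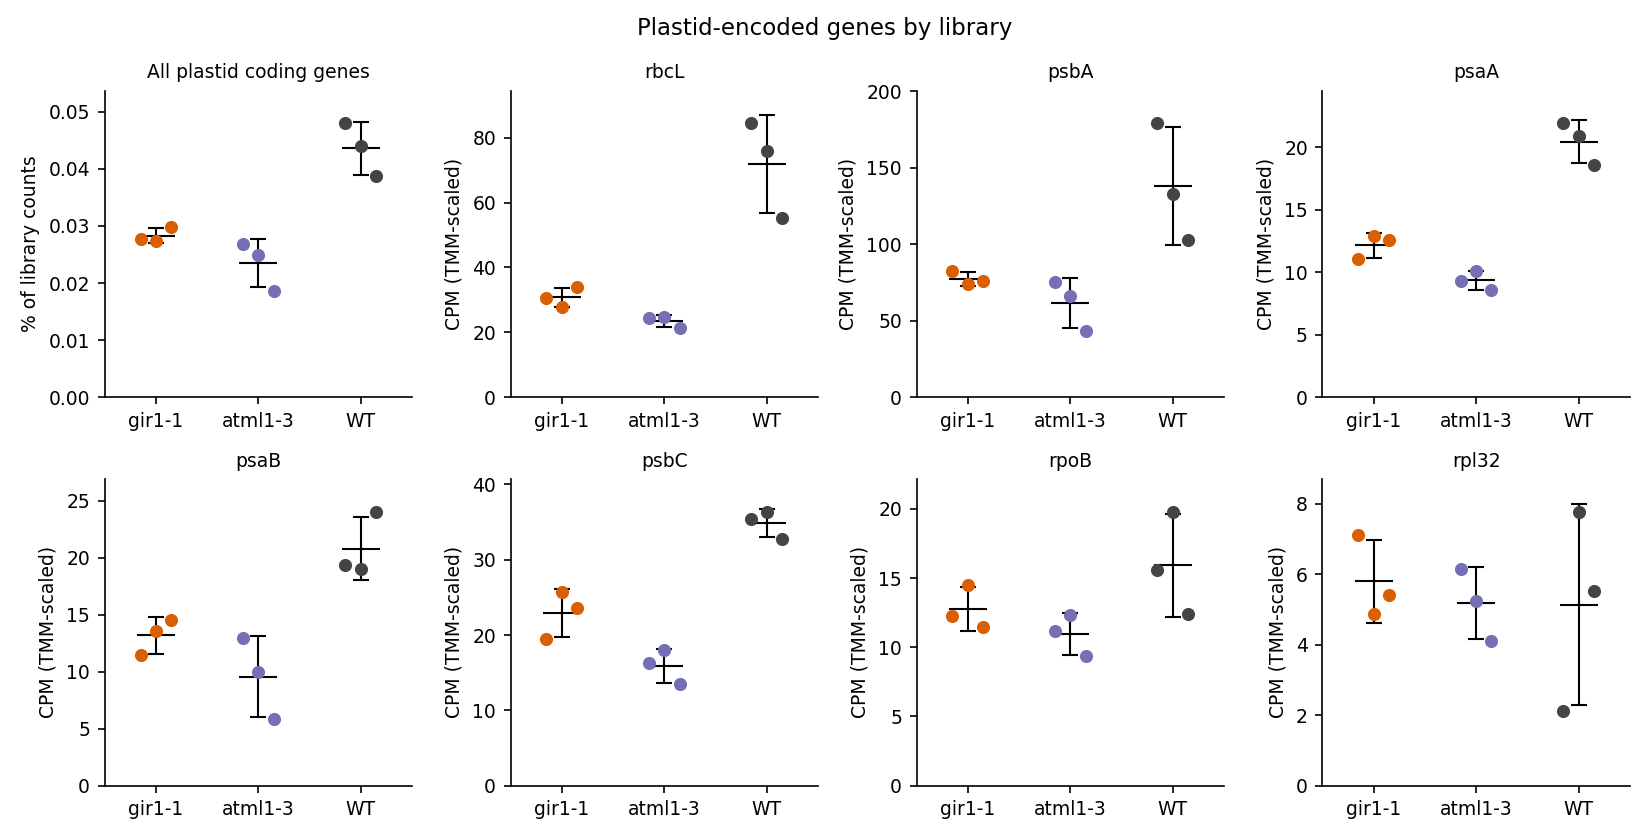
Each point is 1 library, with gir1-1 left, atml1-3 in the middle and WT right, and the black bars are the mean ± SD of 3 libraries. The first panel gives plastid coding counts in percent of the library and the others give TMM-scaled CPM. In rbcL, psbA, psaA, psaB and psbC all mutant libraries lie below all WT libraries, while in rpl32 the genotypes overlap.

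By the edgeR quasi-likelihood test, 0 plastid genes had an adjusted p under 0.05 in each of the 3 comparisons. Of all 19174 genes tested, it called 0.0156% between gir1-1 and WT, 0.0% between atml1-3 and WT and 0.0834% between atml1-3 and gir1-1. Of the 87 members, 58 passed the filter on low counts. Among these, 47 had a log2 fold change below 0 in gir1-1 (49.3% of all genes tested did) and 50 in atml1-3 (51.1%). All 3 mutant libraries lay below all 3 WT libraries for 15 members in gir1-1 (5.29% of all genes) and for 21 in atml1-3 (8.64%). The reverse, all mutant libraries above WT, held for 2 members in gir1-1 (5.17%) and 1 in atml1-3 (9.85%). An unadjusted edgeR p under 0.05 with a lower mutant level was found for 7 members in gir1-1 (4.16% of all genes) and 18 in atml1-3 (6.22%). With a higher mutant level it was found for 1 member, petL, in gir1-1 (3.35%) and 0 in atml1-3 (5.5%). The 58 had a median log2 fold change of −0.45 for gir1-1 and −0.83 for atml1-3, against 0.00 and −0.01 over all genes tested.

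By DESeq2's Wald test of all 9 libraries, rbcL and psaA had an adjusted p under 0.05 in gir1-1, where 0.343% of the genes with an adjusted p were called lower. In atml1-3 the same test called psbA, rbcL, psbC, psaB, psaA, psbD and atpA lower, against 0.652% of genes. It called 0 members higher in gir1-1 (0.357%), in atml1-3 (0.242%) and in atml1-3 against gir1-1 (0.188%), and 0 lower in the last (0.5%). The authors' deposited table has an adjusted p under 0.05 for 7 members in atml1-3 (1.24% of genes) and for rbcL alone in gir1-1 (0.454%). In its comparison of gir1-1 with atml1-3, which runs gir1-1 over atml1-3, the authors' deposited table has 0 members under 0.05 (1.31%). The 7 genes called in atml1-3 are the same in the authors' deposited table and by DESeq2, and each is a photosynthesis gene of at least 1062 bases. The call depends on the test, also for the genes that the mutants are named for. GIR1 in gir1-1 against WT had an adjusted p of 0.385 by edgeR and 0.0383 by DESeq2. ATML1 in atml1-3 against WT had 0.366 by edgeR and 0.005 by DESeq2. A missing edgeR call thus does not show that a difference is absent. The values that follow are edgeR's unless another source is named.

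The large subunit of Rubisco, the enzyme that fixes CO2, showed the largest difference of the abundant members. rbcL (Pt:54958-56397, plus strand) had 30.6, 27.9 and 33.9 CPM in gir1-1 and 24.5, 24.8 and 21.2 CPM in atml1-3, against 84.5, 75.9 and 55.2 CPM in WT. The fitted log2 difference from WT was −1.22 (SE 0.18) for gir1-1, with an edgeR adjusted p of 0.0921, and −1.61 (SE 0.18) for atml1-3, with 0.075. Groups of both mutants lay well below WT, and atml1-3 also lay below gir1-1 in all libraries, by a log2 fold change of −0.39 (SE 0.17, edgeR adjusted p = 0.679). Without a filter on low counts the edgeR adjusted p of rbcL was 0.0379 in gir1-1 and 0.0223 in atml1-3, and without WT replicate 3 it was 0.033 and 0.0165. Of its 50-base words, 14.5% also occur in the mitochondrial genome and a smaller share in the nuclear genome, and how such reads were counted is not given in the sources used here.

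The small subunit of Rubisco is made from nuclear genes, of which RBCS1A is the most abundant. RBCS1A averaged 8779 CPM in gir1-1 and 8799 CPM in atml1-3 against 11410 CPM in WT, a log2 fold change of −0.38 (SE 0.24) and −0.37 (SE 0.24) with edgeR adjusted p of 0.772 and 0.565. There were 343, 276 and 241 RBCS1A counts for each rbcL count in gir1-1 and 364, 385 and 374 in atml1-3, against 117, 190 and 179 in WT. These ratios did not overlap between either mutant and WT, with p = 0.1 by the exact permutation test and 0.233 after Benjamini-Hochberg adjustment over 21 tests. The other small-subunit genes had log2 fold changes of −0.47 (SE 0.22) and −0.52 (SE 0.22) for RBCS3B, −0.79 (SE 0.25) and −0.50 (SE 0.25) for RBCS1B and −1.16 (SE 0.33) and −0.78 (SE 0.32) for RBCS2B, in gir1-1 and atml1-3 against WT. Of these, RBCS2B in gir1-1 was close to rbcL and was called lower by DESeq2, with an adjusted p of 0.0413. The RBCS genes beside RBCS1A are named because of their values, and since these copies are much alike in sequence, how their reads were divided is uncertain.

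No photosystem II gene passed the edgeR threshold, and DESeq2 called psbA, psbC and psbD lower in atml1-3 and no psb gene in gir1-1. psbA encodes the D1 protein, which is replaced continually in the light, and it had the most counts of all members with 28.77% of plastid coding counts. psbA (Pt:383-1444, minus strand) had 82.1, 73.9 and 75.6 CPM in gir1-1 and 75.2, 66.1 and 43.5 CPM in atml1-3, against 178.9, 132.8 and 102.4 CPM in WT. All mutant libraries lay below all WT libraries, and the WT libraries differed among themselves more than the mutant ones did. Its fitted log2 difference from WT was −0.84 (SE 0.24) for gir1-1 and −1.16 (SE 0.24) for atml1-3, with edgeR adjusted p of 0.462 and 0.366.

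The other large psb genes also had values below 0 in both mutants. psbC, for the antenna protein CP43, had 19.5, 25.7 and 23.6 CPM in gir1-1 and 16.3, 18.02 and 13.5 CPM in atml1-3, against 35.4, 36.4 and 32.8 CPM in WT. psbD, for the D2 protein, had log2 fold changes of −0.78 (SE 0.21) and −1.26 (SE 0.21) in gir1-1 and atml1-3 against WT. Both genes lay below WT in all libraries of both mutants, but psbD and psbC overlap in the genome and share a transcript, so reads of the shared stretch cannot be assigned to one of them. psbB, for the antenna protein CP47, was at −0.35 (SE 0.22) in gir1-1, where the groups overlapped, and at −0.76 (SE 0.22) in atml1-3, where they did not.

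Small photosystem II subunits had few counts. Of the 9 tested psb genes under 500 bases, 5 were lower in gir1-1 and 8 in atml1-3 (49.3% and 51.1% of all genes tested were lower). psbM had 51, 42 and 64 counts in gir1-1 and 71, 58 and 36 in atml1-3, against 63, 62 and 41 in WT, and its log2 fold changes were −0.19 (SE 0.35) and −0.06 (SE 0.35). psbI, a short membrane subunit, had a log2 fold change of 1.07 (SE 0.49) in gir1-1, where all libraries lay above WT, and of 0.25 (SE 0.50) in atml1-3, where they overlapped. psbF, for a subunit of cytochrome b559, had 10, 2 and 1 counts in gir1-1 and 0, 1 and 7 in atml1-3, against 12, 20 and 16 in WT, and its log2 fold changes of −1.93 (SE 1.03) and −2.58 (SE 1.09) were the lowest of the class. None of these small genes passed the edgeR threshold. Over the class, 9 of 13 tested psb genes were lower in gir1-1 and 12 of 13 in atml1-3, and psbL and psbN did not pass the filter.

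In photosystem I, psaA was called lower by DESeq2 in both mutants and psaB in atml1-3. psaA and psaB encode the paired reaction-centre proteins and share an operon. psaA (Pt:39605-41857, minus strand) had 11.02, 12.9 and 12.6 CPM in gir1-1 and 9.3, 10.12 and 8.59 CPM in atml1-3, against 21.9, 20.9 and 18.6 CPM in WT. psaB (Pt:37375-39579, minus strand) had 11.4, 13.5 and 14.6 CPM in gir1-1 and 12.9, 9.92 and 5.84 CPM in atml1-3, against 19.4, 18.99 and 24.01 CPM in WT. Neither gene overlapped WT in either mutant. The log2 fold changes of psaA were −0.75 (SE 0.16) in gir1-1 and −1.13 (SE 0.16) in atml1-3 with edgeR adjusted p of 0.302 and 0.308, and those of psaB were −0.66 (SE 0.26) and −1.12 (SE 0.27). The small subunit gene psaJ stood at 0.20 (SE 0.47) and 0.34 (SE 0.47), and psaC, for the subunit that holds iron-sulphur clusters, at −0.68 (SE 0.78) and 0.63 (SE 0.74), so both overlapped WT in both mutants. psaI, another short gene, did not pass the filter, with 2, 0 and 3 counts in gir1-1 and 0, 2 and 1 in atml1-3, against 8, 5 and 3 in WT, and scaled to CPM both mutants lay below WT.

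Genes of the cytochrome b6f complex and the ATP synthase had smaller summed differences from WT than the photosystem genes. petA, for cytochrome f, had log2 fold changes of −0.65 (SE 0.31) in gir1-1 and −1.28 (SE 0.32) in atml1-3 and lay below WT in all libraries of both. petN, a short subunit gene, had values of −0.48 (SE 0.53) and −0.40 (SE 0.53). petL, another short one, had the opposite sign with 15, 7 and 20 counts in gir1-1 and 9, 7 and 7 in atml1-3, against 6, 0 and 4 in WT, and its log2 fold change in gir1-1 of 1.92 (SE 0.84) was the highest of all members. Its edgeR adjusted p was 0.661 in gir1-1, where all libraries lay above WT, though its WT level rests on 10 counts in all.

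atpA, for the alpha subunit of the enzyme's head, was at −0.69 (SE 0.24) in gir1-1 and −1.09 (SE 0.25) in atml1-3 against WT, without overlap in either. atpH, for the membrane ring, overlapped WT in both mutants at −0.27 (SE 0.34) and −0.21 (SE 0.34). atpI, for a membrane subunit of the proton channel, was the lowest of the class at −0.86 (SE 0.71) and −1.23 (SE 0.72), and only atml1-3 lay below WT in all libraries. atpE, for the epsilon subunit, had 46, 77 and 80 counts in gir1-1 and 26, 36 and 30 in atml1-3, against 17, 53 and 34 in WT. The fitted difference was 0.86 (SE 0.44) for gir1-1 and −0.26 (SE 0.45) for atml1-3, both with overlap, and atml1-3 lay below gir1-1 in all libraries by −1.12 (SE 0.44, edgeR adjusted p = 0.654). atpB, for the beta subunit, overlaps atpE on the same transcript and was at −0.35 (SE 0.26) and −0.72 (SE 0.27).

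NDH genes were weakly covered. The 12 ndh rows held between 56 and 215 counts per library, and 6 of them passed the filter. All 6 had a log2 fold change below 0 in both mutants, but 0 of 6 had an unadjusted edgeR p under 0.05. Of the 6, only ndhG in gir1-1, chosen here after its values were seen, lay below WT in all libraries. ndhK, for a subunit of the peripheral arm and the most abundant of the class per length, had 34, 16 and 42 counts in gir1-1 and 23, 18 and 9 in atml1-3, against 23, 44 and 36 in WT. ndhC stood at −0.01 (SE 0.73) in gir1-1 and −1.06 (SE 0.77) in atml1-3, ndhJ at −0.18 (SE 0.56) and −0.63 (SE 0.57), ndhA at −1.17 (SE 0.79) and −0.98 (SE 0.79), and ndhD at −0.46 (SE 0.60) and −1.35 (SE 0.62). The edgeR standard errors of single ndh genes are thus as large as many of the differences. ndhB lies in the inverted repeat, and its 2 rows together had 5, 4 and 3 counts in gir1-1 and 1, 1 and 1 in atml1-3, against 5, 3 and 4 in WT. Neither ndhB row passed the filter.

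Among ribosomal protein genes of the large subunit, rpl32, the most abundant per length after psbA at 33.6 FPKM over all libraries, had 7.12, 4.88 and 5.4 CPM in gir1-1 and 6.16, 5.25 and 4.11 CPM in atml1-3, against 2.12, 7.77 and 5.52 CPM in WT. The WT libraries spanned the range of both mutants, and the log2 fold changes were 0.18 (SE 0.41) and 0.01 (SE 0.42). rpl16 stood at −0.15 (SE 0.28) in gir1-1 and −0.38 (SE 0.28) in atml1-3, and rpl22 at −0.52 (SE 0.55) and −0.39 (SE 0.55). The 6 rpl rows that passed the filter overlapped WT in both mutants, as most genes did, since 5.29% of all genes lay below and 5.17% above WT in gir1-1, and 8.64% and 9.85% in atml1-3. Among the rows that did not pass, rpl36 lay below WT in atml1-3, with 2, 1 and 2 counts against 9, 4 and 8.

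Among the small-subunit genes, rps14, which shares the psaA and psaB operon, had 35, 39 and 30 counts in gir1-1 and 11, 24 and 21 in atml1-3, against 47, 42 and 56 in WT. It lay below WT in all libraries of both mutants, at −0.55 (SE 0.37) and −1.45 (SE 0.38), as psaA and psaB did. rps3 was at −0.58 (SE 0.41) and −0.34 (SE 0.41), and rps4 at 0.37 (SE 0.67) and −0.84 (SE 0.71). Both overlapped WT in both mutants.

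Genes of the inverted repeat could hardly be read. rpl2 had, over both rows, 25, 16 and 22 counts in gir1-1 and 30, 7 and 4 in atml1-3, against 27, 27 and 16 in WT. Only 1 of its rows passed the filter, with log2 fold changes of −0.10 (SE 0.79) in gir1-1 and −0.66 (SE 0.81) in atml1-3. The 14 rows that share name and length with another row held 113 counts over the gir1-1 libraries and 56 over the atml1-3 libraries, against 104 over the WT libraries. All of the 50-base words of rpl2, rpl23 and ndhB are repeated on the plastid sequence. Another 2 rows, of rps12, had no counts in any library, but they lie outside the repeat. Both cover Pt:69611-69724, on opposite strands, and 0.0% of their words are repeated on the plastid sequence.

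For the 4 subunit genes of the plastid-encoded RNA polymerase, all atml1-3 libraries lay below all WT libraries (8.64% of all genes did), though neither edgeR nor DESeq2 called any of them, and DESeq2 gave no adjusted p for rpoA and rpoC2 there. rpoB (Pt:23111-26329, minus strand), for the beta subunit, had 12.3, 14.5 and 11.4 CPM in gir1-1 and 11.2, 12.3 and 9.36 CPM in atml1-3, against 15.6, 19.8 and 12.4 CPM in WT. The gir1-1 libraries overlapped WT, while the highest atml1-3 library lay just below the lowest WT library. The log2 fold changes of rpoB were −0.32 (SE 0.21) and −0.54 (SE 0.21), those of rpoC1 −0.21 (SE 0.41) and −1.28 (SE 0.43), and those of rpoC2 −1.08 (SE 0.61) and −1.52 (SE 0.62). All 4 rpo genes had a lower level with an unadjusted edgeR p under 0.05 in atml1-3 (6.22% of all genes did), with adjusted p from 0.379 for rpoC1 to 0.412 for rpoA.

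Of the members outside these complexes, accD and clpP encode subunits of the plastid acetyl-CoA carboxylase and of the Clp protease. accD had 19, 5 and 13 counts in gir1-1 and 6, 5 and 18 in atml1-3, against 14, 22 and 15 in WT, and the genotypes overlapped, at −0.57 (SE 0.68) and −0.84 (SE 0.69). clpP stood at −0.16 (SE 0.31) in gir1-1 and 0.28 (SE 0.30) in atml1-3, and cemA, for an envelope membrane protein, at 0.06 (SE 0.47) and −0.06 (SE 0.47). ycf3, for a photosystem I assembly factor, was the lowest at −1.57 (SE 0.70) and −1.19 (SE 0.69). It had 10, 34 and 10 counts in the WT libraries, so its WT level rests largely on 1 library.

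The classes were then set beside each other as sums, each fitted as 1 row among all genes in place of its members. In gir1-1 the summed log2 fold changes ran from −1.22 (SE 0.18) for rbcL over −0.71 (SE 0.19) for psb, −0.65 (SE 0.18) for psa and −0.54 (SE 0.30) for ndh to −0.32 (SE 0.20) for rps and −0.08 (SE 0.23) for rpl. In atml1-3 they ran from −1.61 (SE 0.18) for rbcL over −1.10 (SE 0.31) for ndh, −1.07 (SE 0.19) for psb and −0.99 (SE 0.18) for psa to −0.56 (SE 0.20) for rps and −0.29 (SE 0.23) for rpl. The pet, atp and rpo sums lay between, at −0.48, −0.35 and −0.35 in gir1-1 and −0.85, −0.70 and −0.69 in atml1-3. Photosystem and ndh sums thus differed from WT by amounts within an SE or so of each other, and the rpl sum differed least of the named classes, with 0.079 in gir1-1 when WT replicate 2 was left out. No class sum passed an edgeR adjusted p of 0.05, and the lowest were those of rbcL, followed by 0.374 for psa, psb, pet, atp, ndh and rpo in atml1-3. Both contrasts share the WT libraries.

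**Figure D2:**
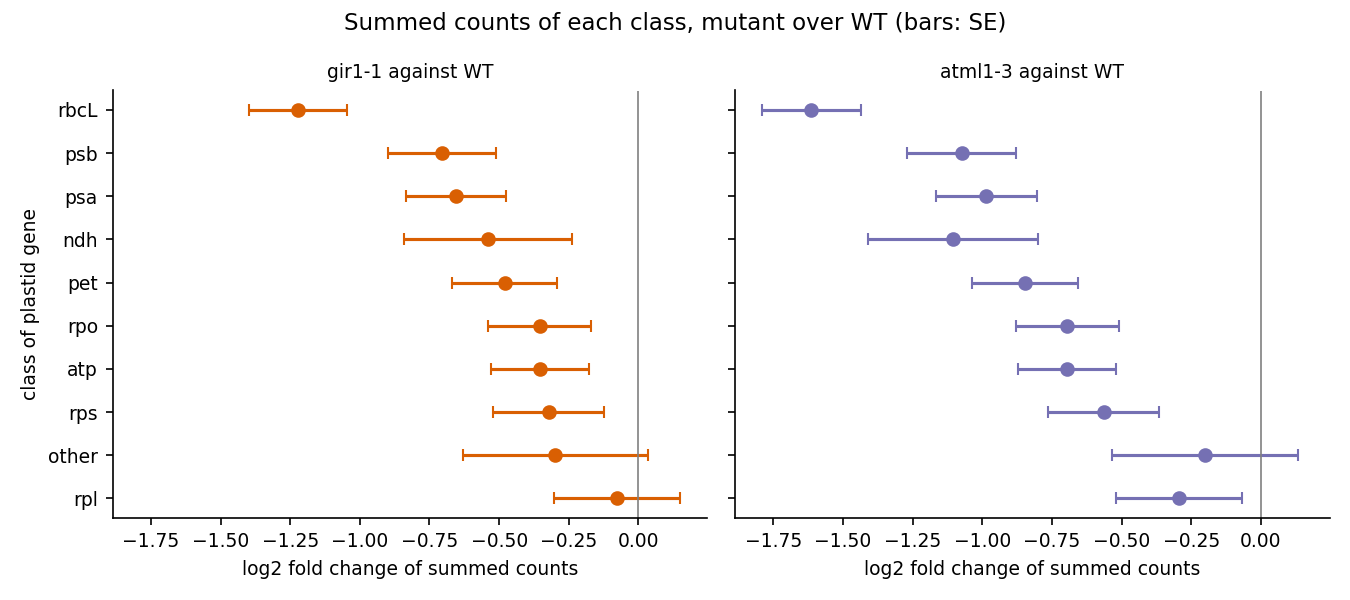
Points are log2 fold changes of the summed counts of each class, gir1-1 against WT left and atml1-3 against WT right, and bars are ± 1 SE from edgeR's fit. In both panels rbcL lies lowest, at −1.22 and −1.61, and rpl lies highest of the named classes, at −0.08 and −0.29.

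The classes were also expressed relative to the plastid total, which removes the difference that all members share. Photosystem genes held 57.2%, 59.7% and 56.8% of plastid coding counts in gir1-1 and 58.4%, 56.8% and 53.9% in atml1-3, against 62.0%, 55.9% and 59.7% in WT. The ndh genes held 2.18%, 1.97% and 3.11% in gir1-1 and 2.02%, 2.31% and 1.83% in atml1-3, against 1.84%, 2.77% and 2.11% in WT. Both shares overlapped between the mutants and WT, so no difference in these shares was detectable with 3 libraries. The differences in share were −1.34 percentage points for photosystem genes in gir1-1 and −2.85 in atml1-3, and 0.18 and −0.19 for ndh genes.

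The shares of rbcL and of the ribosomal protein genes lay outside the WT range, on opposite sides. rbcL held 11.1%, 9.9% and 11.5% of plastid coding counts in gir1-1 and 9.5%, 10.4% and 11.6% in atml1-3, against 16.8%, 16.1% and 14.6% in WT. Ribosomal protein genes (rpl and rps) held 9.28%, 7.84% and 7.2% in gir1-1 and 9.13%, 8.19% and 8.79% in atml1-3, against 4.31%, 6.27% and 6.8% in WT. In both cases no mutant library overlapped a WT library. The exact permutation test gave p = 0.1 for each, and 0.4 after Benjamini-Hochberg adjustment over 36 tests. The atp share also lay above WT in atml1-3, at 7.57% ± 0.76 against 6.11% ± 0.52 (SD, n = 3 each), and so did the members outside the complexes, at 6.11% ± 0.29 against 3.51% ± 0.81. In gir1-1 both of these shares overlapped WT.

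Shares of one total are tied to each other, so the ribosomal share was also taken without the most abundant genes. With rbcL and psbA taken out of the total, ribosomal protein genes held 13.1% ± 2.22 in gir1-1 and 13.9% ± 0.86 in atml1-3 against 10.7% ± 1.39 in WT (SD, n = 3 each), and gir1-1 then overlapped WT while atml1-3 did not. There were 6.16, 7.61 and 7.89 photosystem counts for each ribosomal protein count in gir1-1 and 6.4, 6.93 and 6.13 in atml1-3, against 14.4, 8.93 and 8.79 in WT. WT replicate 1, which also had the most plastid rRNA counts, had the highest of these ratios, and without it the WT mean was 8.86 instead of 10.7. All mutant libraries were still below the 2 WT libraries left. Photosystem counts per ndh count averaged 24.9 in gir1-1 and 27.7 in atml1-3 against 27.4 in WT and overlapped.

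When every member of a class was given the same weight, as the mean log2 level relative to the plastid total, rbcL stood at −0.55 in gir1-1 and −0.59 in atml1-3, without overlap with WT. By the same measure rpl stood at 0.23 in gir1-1, with overlap, and at 0.44 in atml1-3, without overlap. The rps value was 0.37 and 0.41 and that of rpl and rps together 0.31 and 0.42, all with overlap (p = 0.2 each by the exact permutation test), unlike the ribosomal share by counts. The ndh value was −0.03 in gir1-1 and −0.33 in atml1-3, the psb value 0.13 and 0.02, and the psa value −0.04 and 0.31. These small values depend on the pseudocount of 0.5, since with one of 5 the ndh value was 0.23 in gir1-1 and 0.29 in atml1-3 and the psa value in gir1-1 was 0.18. The pet value was 0.57 in gir1-1, above WT in all libraries, and 0.49 in atml1-3, with overlap. The atp value was 0.26, with overlap, and 0.36, without. The ndh and psa values of atml1-3 did not overlap WT, with p = 0.1 by the exact permutation test and 0.4 after Benjamini-Hochberg adjustment over 36 tests. In this measure the 3 small psa genes weigh more than psaA and psaB, which by counts held 8.31% of plastid counts in atml1-3 against 9.32% in WT, with overlap.

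**Figure D3:**
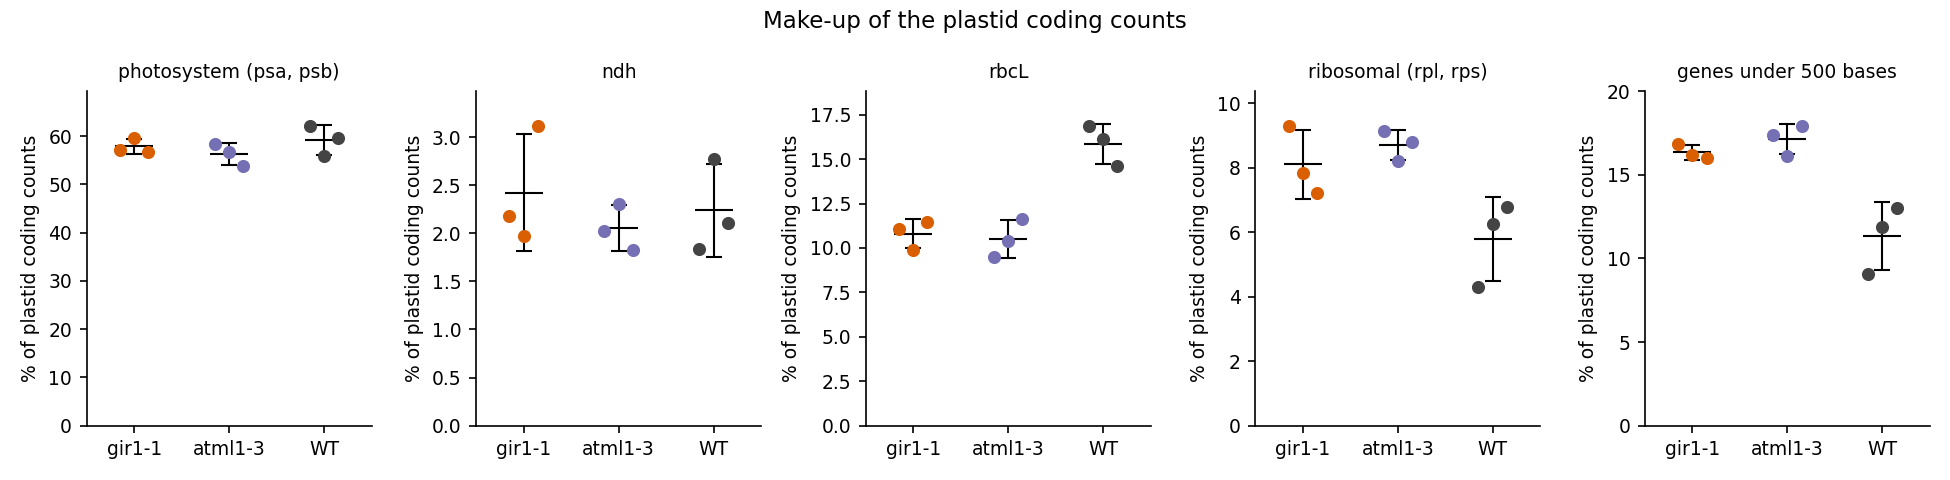
Points are libraries, with gir1-1 left, atml1-3 in the middle and WT right, and bars are mean ± SD (n = 3). The vertical axis is percent of plastid coding counts. Photosystem and ndh shares overlap between genotypes, while rbcL is lower and ribosomal protein genes and genes under 500 bases are higher in all mutant libraries than in all WT libraries.

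Gene length, which the classes do not use, also went with the size of the difference. Among the 58 members tested, the log2 fold change was lower for longer genes, with a Spearman rho of −0.44 in gir1-1 and −0.44 in atml1-3 (n = 58 genes, which share libraries and transcripts). Over the same 58, rho was −0.02 and 0.0 with the mean count and −0.20 and −0.34 with GC content. With A content it was 0.11 and 0.21, and with the longest run of A −0.20 and −0.17. Base composition and runs were taken over the genomic span with introns, while gene length leaves introns out. Among the 17 members with a mean of at least 50 counts, rho was −0.55 and −0.57 with length. There it was also −0.60 and −0.71 with the mean count and −0.59 and −0.62 with GC content. With A content it was 0.62 and 0.61, and with the longest run of A 0.65 and 0.59. These features are thus not separate among the 17. Members under 500 bases, 45 of the 87, held 16.9%, 16.2% and 15.99% of plastid coding counts in gir1-1 and 17.4%, 16.1% and 17.9% in atml1-3, against 9.08%, 11.9% and 13.03% in WT. No mutant library overlapped WT, with p = 0.1 by the exact permutation test and 0.236 after Benjamini-Hochberg adjustment over 33 tests. With rbcL and psbA left out, the shares were 26.4% ± 1.75 in gir1-1 and 27.4% ± 1.16 in atml1-3 against 20.9% ± 1.66 in WT (SD, n = 3 each), again without overlap. The limit of 500 bases was chosen after the values had been seen.

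The sums of longer members were further below WT than those of shorter members in psa, psb, pet, atp and ndh, in both mutants. In psb, the 4 genes of 500 bases or more summed to 123.5 CPM in gir1-1 and 94.8 CPM in atml1-3 against 207.4 CPM in WT, a log2 ratio of −0.75 and −1.13. The 11 shorter psb genes summed to 13.1 CPM and 11.1 CPM against 15.3 CPM, a log2 ratio of −0.23 and −0.46. In psa the log2 ratio was −0.70 and −1.13 for psaA with psaB, and −0.07 and 0.26 for the 3 shorter genes. In atp it was −0.56 and −0.83 for the longer genes and 0.28 and −0.23 for the shorter, and in ndh −0.66 and −1.15 for the longer and −0.23 and −0.97 for the shorter. In rps it was the other way, with −0.28 and −0.22 for the longer and −0.36 and −0.88 for the shorter. Most rpl and rps genes are short, with a median of 354 and 304.5 bases, so class and length are not separate in these data. Base composition, taken over the genomic span with introns, also differs between classes, with a median A content of 36.2% in rpl and 25.0% in psb. Whether fragment length, mapping or the selection of RNA moves with gene length in these libraries was not tested.

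**Figure D4:**
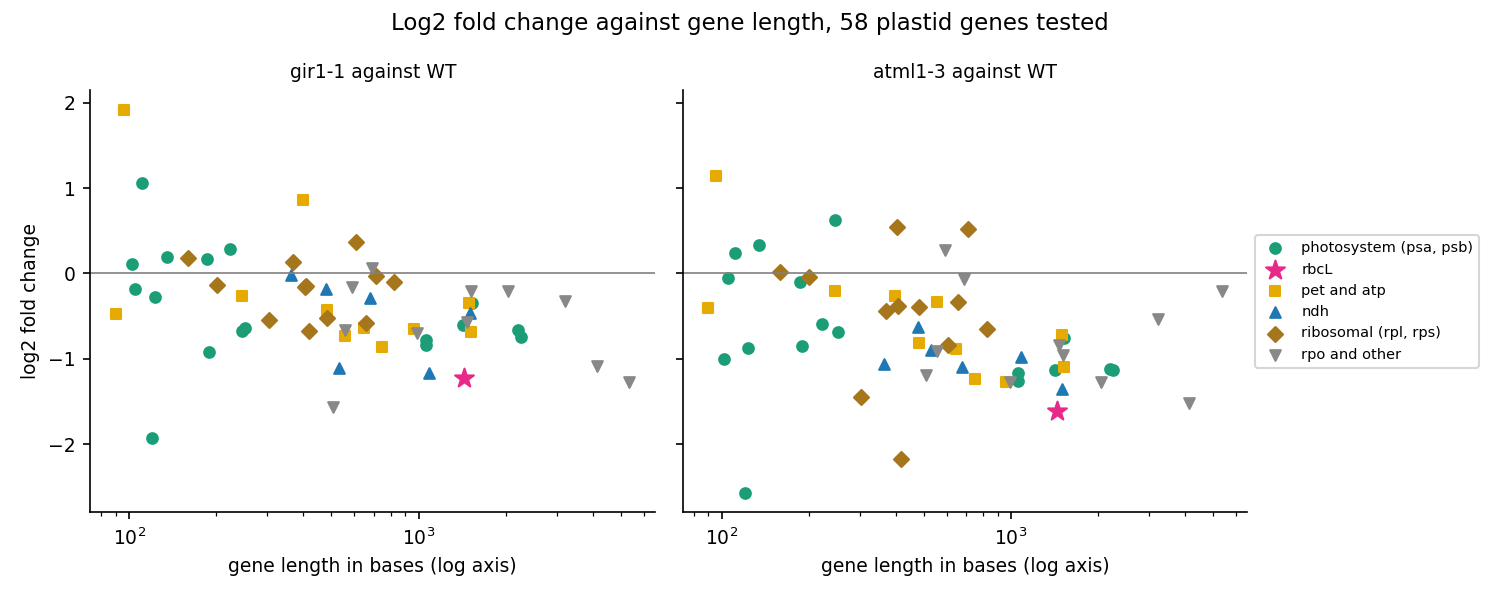
Each point is 1 of the 58 plastid genes tested, with its length on a log axis and its log2 fold change on the vertical axis, gir1-1 against WT left and atml1-3 against WT right. Points of genes of at least 1062 bases lie below 0 in both panels, with rbcL at −1.22 and −1.61, while shorter genes scatter on both sides.

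Genes read from one transcript had like values in some clusters and not in others. In the psaA cluster (psaA, psaB, rps14) the log2 fold changes ran from −0.75 to −0.55 in gir1-1 and from −1.45 to −1.12 in atml1-3. In the psbD cluster (psbD, psbC, psbZ) they ran from −0.93 to −0.60 and from −1.26 to −0.85. In the psbB cluster (psbB, psbT, psbH, petB, petD) they ran from −0.64 to 0.29 and from −1.001 to −0.60. In the atpB cluster, atpB and atpE stood at −0.35 and 0.86 in gir1-1 and at −0.72 and −0.26 in atml1-3.

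The mutants were set against each other directly. In atml1-3 against gir1-1, 41 of 58 tested members had a log2 fold change below 0 (50.4% of all genes tested), 7 lay below gir1-1 in all libraries (7.0%), 0 lay above it (8.0%), and 7 had an unadjusted edgeR p under 0.05 with a lower level (3.99%), against 0 with a higher one (3.36%). The 7 without overlap include rbcL, psaA and psbC, at −0.39 (SE 0.17), −0.38 (SE 0.16) and −0.52 (SE 0.16). The summed plastid row stood at −0.33 (SE 0.17), with an edgeR adjusted p of 0.717. Shares of rbcL, ribosomal protein genes, photosystem genes and ndh genes within the plastid total overlapped between the mutants.

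Nuclear genes for chloroplast proteins had medians closer to 0 than the 58 plastid members tested. Of 25 nuclear genes of photosynthesis, the edgeR test called 0 in each comparison, 10 were lower and 15 higher in gir1-1, and 18 lower and 7 higher in atml1-3. DESeq2 called RBCS2B lower and LHCB1.1, for a light-harvesting protein, higher in gir1-1, at −1.16 and 0.90 (adjusted p of 0.0413 and 0.0314), and GAPA, for a Calvin cycle enzyme, lower in atml1-3, at −0.70 (adjusted p of 0.0296). The median of the 25 stood at 0.15 on the log2 scale for gir1-1 and −0.10 for atml1-3, and the list held 5.62% ± 0.20 of counts in gir1-1 and 5.01% ± 0.33 in atml1-3 against 5.91% ± 0.52 in WT (SD, n = 3 each), and atml1-3 did not overlap WT. Rubisco activase, RCA, was among the lower ones in both, at −0.66 (SE 0.28) and −0.83 (SE 0.28). The 20 genes of the plastid transcription machinery, sigma factors and polymerase-associated proteins, had medians of −0.08 and −0.17, and edgeR called 0 of them. SIG1 stood at −0.34 (SE 0.18) and −0.29 (SE 0.18), and SIG5 at −0.51 (SE 0.45) and −0.55 (SE 0.45). The 14 plastid RNA stability factors had medians of −0.11 and −0.37, the latter near the −0.38 of plastid rpl genes in atml1-3. CSP41B, an RNA-binding protein, stood at −0.56 (SE 0.23) and −0.70 (SE 0.23), and CP31A at −0.28 (SE 0.20) and −0.50 (SE 0.20). In atml1-3, 17 of the 20 and 13 of the 14 were lower (51.1% of all genes tested). All 3 atml1-3 libraries lay below WT for 8 of the 25, 6 of the 20 and 9 of the 14 (8.64% of all genes did). They lay above WT for 0 genes of each list (9.85%).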

How the data were processed

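RNA-seq libraries of 3 genotypes were used as the authors' deposited raw read counts per gene, per the file headers. The authors also deposited FPKM values, log2 fold changes and p-values with adjusted p-values, per the file headers. FPKM served only to rank members per length, and the authors' p-values were only counted. The build is TAIR10 per the submitters' processing notes. The aligner, counting program, strand use and mRNA selection are not given in the sources used here. Starts and ends equalled those of TAIR10.1 RefSeq for all 38286 genes matched by identifier, including 83 members. No unassigned rows were in the table.

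Counts were fitted with edgeR 4.0.16 in R 4.3.3 (TMM, filterByExpr, quasi-likelihood F test, genotype as the only factor, 9 libraries, 6 residual degrees of freedom). Of all rows, 19174 genes were kept, with at least 99.88% of each library's counts, and p-values were adjusted by Benjamini-Hochberg over them at 0.05. SE is the absolute log2 fold change over the root of F. Class and plastid sums replaced their members in further fits. Shares were compared by exact two-sided permutation tests over libraries. Levels relative to the plastid total used a pseudocount of 0.5. Alternatives were DESeq2 1.42.0, other scalings and filters, and leaving out libraries. The edgeR test was tried on simulated counts. Depth was 15328056 to 20148807 counts, and floors of 3 counts cover counting error only.

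The members, classes, gene lists and naming rule were chosen with earlier results of these data known. Named were rbcL and psbA, and per class the 2 most abundant members by FPKM and those with the largest and smallest log2 fold change in each mutant. accD, ndhB, rpl2 and rpoB were given by library, and of each nuclear list the genes called or else the 2 with the most counts. Other members named were chosen after their values were seen. Libraries of a genotype differed beyond counting error (chi-square per degree of freedom 3.23 to 5.96 over members), so each counts as 1 replicate. Some members that the naming rule picks are not reported here.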

Additional observations from a re-analysis of the deposited data

How the results depend on the processing

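Of 125 results, 1748 values were recomputed under an alternative, of which 1646 kept their direction and side of the threshold, 38 reversed, 42 moved, 22 passed a threshold they had missed and 0 lost one. The plastid share was below WT under all alternatives run, with differences of −0.0176 to −0.0131 percentage points in gir1-1 and −0.0225 to −0.0177 in atml1-3 when 1 library was left out. edgeR called 0 members in each mutant; DESeq2 called 2 in gir1-1 and 7 in atml1-3, the fit with no filter 1 and 1, and leaving out 1 library 0 to 1 in each (rbcL, without WT replicate 3). The median of all members in gir1-1 (−0.45) was −0.58 by DESeq2 and −0.58 with no filter, where more low-count genes enter. In the same order the other medians that moved were −1.13 and −1.12 for psa in atml1-3, −0.60 and −0.59 for psb in gir1-1, −0.52 and −0.52 for rpl in gir1-1, −0.097 and −0.094 for rps in gir1-1, and −0.46 and −0.43 for rps in atml1-3. With only the 2 groups in the fit the rps median in atml1-3 was 0.077 and rpl32 in atml1-3 was −0.0026. Total counts without TMM gave −0.0089 for the nuclear photosynthesis median in atml1-3.

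With 1 library left out, medians ran from −0.51 to −0.27 for all members in gir1-1 and −0.84 to −0.66 in atml1-3, −0.73 to −0.47 for psa in gir1-1 and −0.65 to −0.29 in atml1-3, −0.45 to −0.27 for psb in gir1-1 and −0.91 to −0.73 in atml1-3, −0.67 to −0.0013 for ndh in gir1-1 and −1.33 to −0.77 in atml1-3, −0.16 to 0.13 for rpl in gir1-1 and −0.54 to −0.16 in atml1-3, and −0.60 to −0.20 for rps in gir1-1 and −0.74 to −0.38 in atml1-3. The nuclear photosynthesis median ran from 0.0083 to 0.23 in gir1-1 and −0.20 to −0.050 in atml1-3, that of the transcription machinery from −0.23 to 0.056 and that of the RNA stability factors from −0.27 to −0.0024, both in gir1-1. Class sums passed the threshold by DESeq2 at −0.99 for psa, −1.08 for psb and −0.86 for pet in atml1-3, and for rbcL at −1.23 in gir1-1 and −1.62 in atml1-3. With no filter rbcL passed at −1.22 and −1.61, and with 1 library left out the sum ran from −1.38 to −1.09 and from −1.77 to −1.48. The rpl sum in gir1-1 ran from −0.22 to 0.079, the sum of the other genes in atml1-3 from −0.42 to 0.028, accD in atml1-3 against gir1-1 from −1.12 to 0.22, ndhD in gir1-1 from −0.76 to 0.044, and rpl32 from −0.20 to 0.61 in gir1-1, −0.36 to 0.43 in atml1-3 and −0.31 to 0.00091 between them.

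Class shares changed sign with 1 library left out for psa (−0.698 to 0.835 points in gir1-1, −0.741 to 0.792 in atml1-3), psb in gir1-1 (−2.53 to 0.754) and ndh (−0.162 to 0.449 in gir1-1, −0.389 to 0.0793 in atml1-3). Without rbcL and psbA in the total, pet was at −0.101 in gir1-1 and −0.248 in atml1-3, and ndh at −0.248 in gir1-1. The equal-weight level of psa in gir1-1 was 0.18 with a pseudocount of 5, 0.23 over members with a mean of at least 10 counts, and −0.16 to 0.043 with 1 library left out; that of ndh in gir1-1 was 0.23, 0.21 and −0.19 to 0.10, and in atml1-3 0.29 with a pseudocount of 5. That of psb without rbcL and psbA in the total was −0.055 in gir1-1 and −0.19 in atml1-3, with −0.10 to 0.14 in atml1-3 when 1 library was left out, and that of rps in gir1-1 without the genes of the inverted repeat was −0.022. The cause of these changes was not tested.

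Photosystem counts per ribosomal protein count differed from WT by −3.48 in gir1-1 and −4.21 in atml1-3, and without WT replicate 1 by −1.64 and −2.37. Same-numbered libraries did not deviate together (correlations −0.174 to 0.137), so the numbers do not pair them; with the replicate number as a block edgeR called 0 members, the rps median in gir1-1 was −0.51, and no other call changed. Libraries of 15328056 to 20148807 counts leave 36 members with a mean under 10 counts.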
